A study of Mus musculus with 2 samples.

Results

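The genes of the proteasome were compared between 4T1 cells treated with astragalin (AS) and 4T1 cells treated with its vehicle. 4T1 is a murine breast cancer line, labelled wild type, and AS is a plant flavonoid. Cells were exposed to 20 μM AS for 24 h, and 1 RNA library was sequenced per condition, so no difference below has a replicate check and no p-value is given. Members were taken by symbol from the deposited table of 14197 genes, as Psma to Psmg followed by a digit. Of 49 such symbols, the 3 immunoproteasome genes Psmb8, Psmb9 and Psmb10 were set apart, no pseudogene symbol was present, and 46 members were left.

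By function, 14 members encode subunits of the 20S core, 17 encode subunits of the 19S regulatory particle and 4 encode activators. A further 8 encode assembly chaperones or the inhibitor PI31. The last 3 matched by symbol only. Psmc3ip encodes a recombination factor, Psme3ip1 encodes a protein that binds an activator, and Psme2b is a near-identical copy of Psme2. The deposited table did not list the testis subunit gene Psma8 or the thymus subunit gene Psmb11.

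The proteasome is the main protease of the cytosol and nucleus for proteins tagged with ubiquitin. Its 20S core is a barrel of stacked rings, in which the outer alpha subunits form the gate and the inner beta subunits hold the active sites. The 19S particle caps the barrel, binds ubiquitin chains, removes them and drives the substrate into the core with a ring of ATPases. Activators such as PA28 and PA200 can bind the same end of the barrel in place of the 19S cap. When proteasome activity falls, the transcription factor NRF1, the product of Nfe2l1, is known to raise the genes of the subunits.

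Levels are RPKM as made by the authors, which are reads divided by the length of the annotated exons and by library size. The library sizes recovered from these values were 44909683 reads for AS and 50820728 reads for the vehicle. Each log2 fold change divides AS by vehicle after 0.1 RPKM was added on both sides. Every interval is at the 95% level, was computed from reads by the Clopper-Pearson method and covers counting error only. Each member except Psme3ip1 gave back whole reads in both libraries, from 178 to 38404 per gene. The median over the whole table was a log2 fold change of 0.07. Epithelial genes, which mark this line, such as Epcam (335 RPKM with AS, 357 with the vehicle) and Krt18 (707 and 902) were abundant, and 0 of 4 endothelial markers were listed. The leukocyte markers (5 of 6 listed) summed to 27.3 and 30.9 RPKM, most of it Cd68, and the fibroblast markers (4 of 6 listed) to 6.08 and 5.67 RPKM. Of the 8 epithelial markers, 6 were lower with AS, and their summed level was 1796 RPKM against 2317, a difference whose part in the results below was not tested.

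The proteasome genes were expressed far above the typical gene. Their median level was 27.8 RPKM with AS and 32.1 RPKM with the vehicle, against 5.10 and 4.79 RPKM over all genes. The 20S and 19S subunits together made up 0.518% of the summed RPKM of the AS library and 0.543% of that of the vehicle library.

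**Figure D1:**
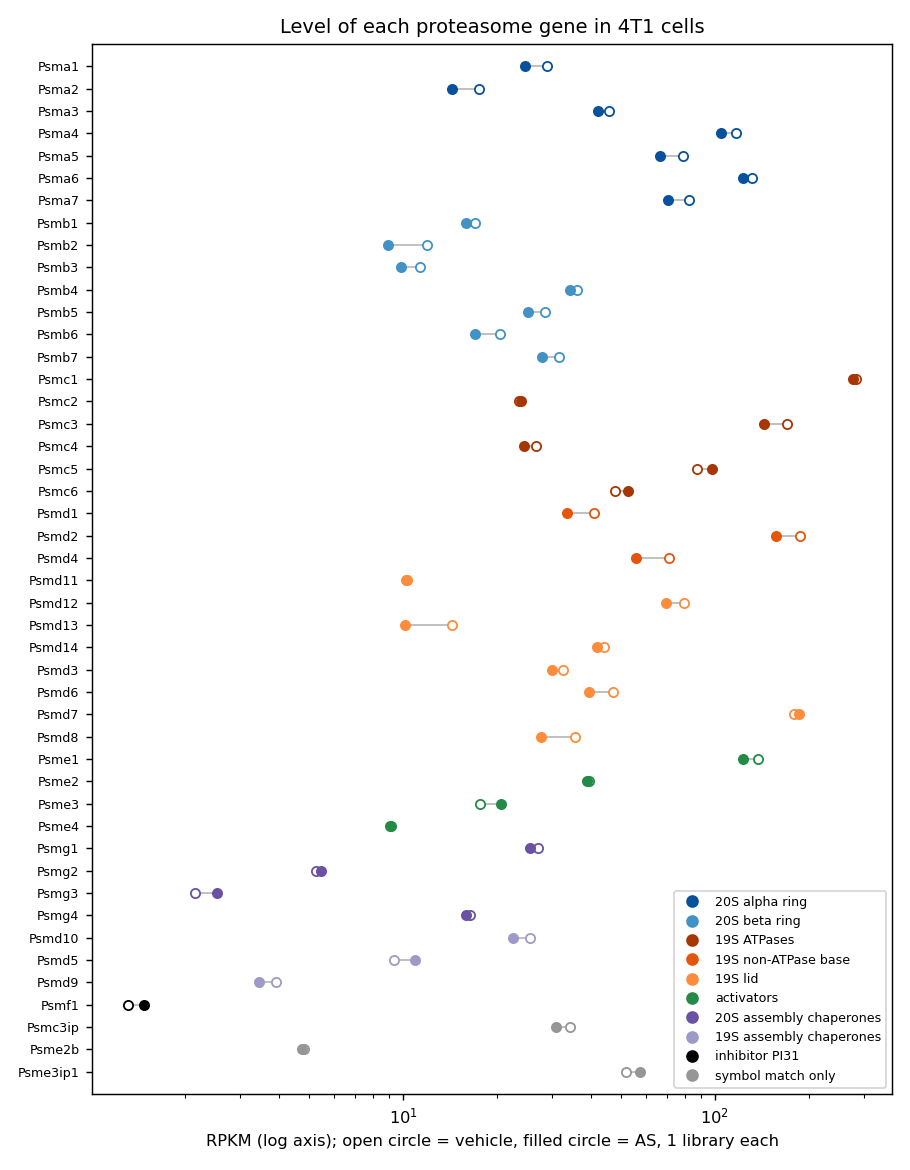
RPKM of each of the 46 genes (log axis) in the vehicle library (open circles) and the AS library (filled circles), coloured by part. The filled circle lies left of the open one for all 14 genes of the 20S core, while the genes of the other parts lie on both sides.

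Across the set the AS library was slightly lower. The median log2 fold change of the 46 members was -0.12, and 35 of them were below 0 (76.1%), where 39.1% of all genes were. The differences were small. A total of 8 members were lower by at least 0.25 (17.4%), against 11.5% of all genes, and 0 were higher by as much, against 22.3%. At a fold of 1.5, 0 of 46 members passed in either direction, where 5.57% of all genes did. Abundant genes had lower fold changes than scarce ones, so the count was repeated among genes with a mean of at least 10 RPKM. There, 32 of 40 members were below 0, against 48.4% of all such genes, and the medians were -0.15 and 0.01. For most members counting error was smaller than the difference, while the intervals of some spanned 0. The interval lay below 0 for 30 of 45 members (66.7%), against 20.0% of all genes with whole reads, and above 0 for 6 members (13.3%), against 38.2%. More reads give narrower intervals. Among genes with a mean of at least 10 RPKM, the interval lay below 0 for 29 of 40 members and for 1464 of 4585 genes. It lay above 0 for 5 and 1638 of these, and both totals include genes without an interval. How much of such differences would be seen between dishes of 1 condition cannot be told from 1 library each.

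**Figure D2:**
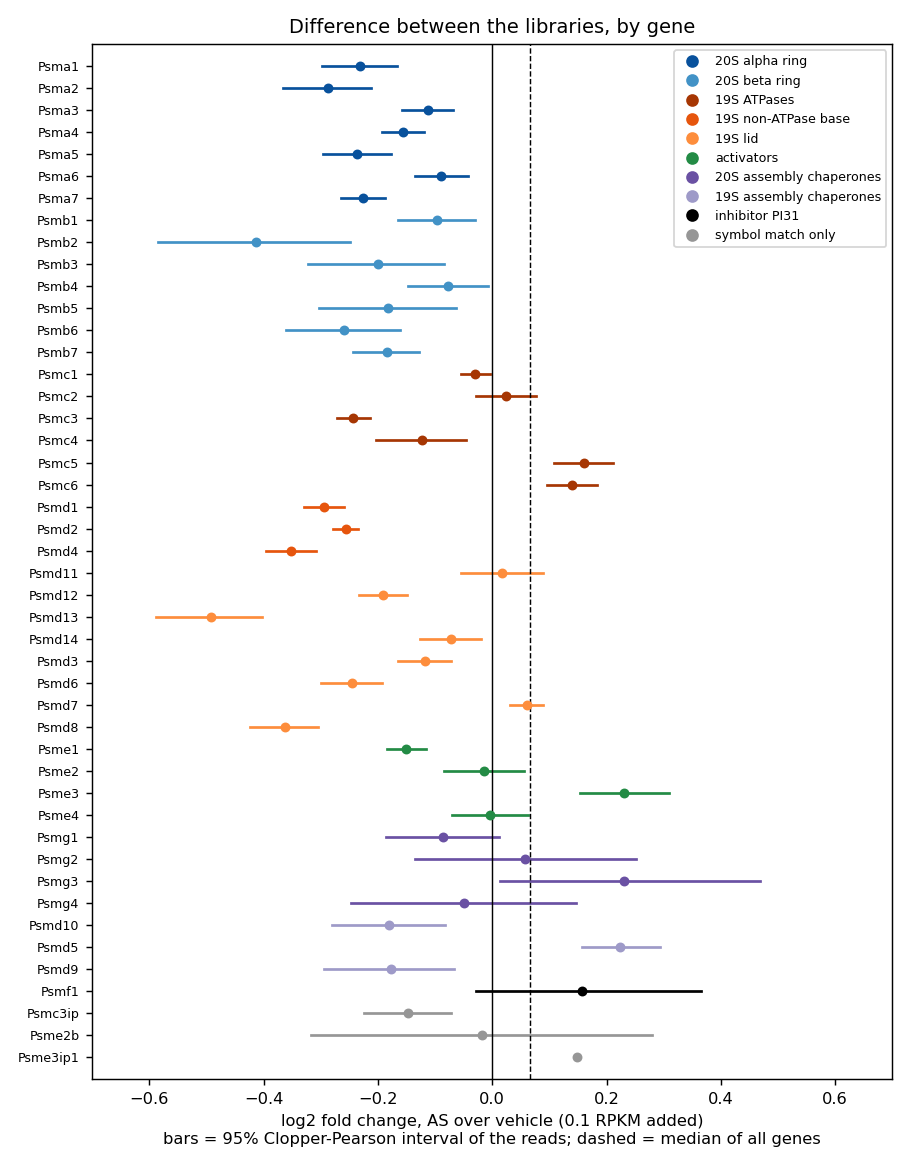
Log2 fold change of AS over vehicle for each gene, with its 95% Clopper-Pearson interval as a bar, the line at 0, and the median of all genes (0.07) as a dashed line. All 14 bars of the 20S core lie left of 0, the bars of the 19S ATPases lie on both sides, and no gene reaches a fold of 1.5 in either direction.

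The 20S core was the most uniform part. All 14 of its genes were lower with AS, where 39.1% of all genes were. The 14 log2 fold changes ran from -0.41 to -0.08, with a median of -0.19 and an SD over genes of 0.09. The interval of each of the 14 lay below 0 at the deposited scaling, where 20.0% of all genes with whole reads had such an interval. The upper bounds nearest 0 were -0.0068 for Psmb4, -0.031 for Psmb1 and -0.042 for Psma6. With RPKM rescaled to equal sums, a log2 shift of 0.057, these upper bounds would lie above 0. The summed level of the 14 genes was 586 RPKM with AS and 659 RPKM with the vehicle, 11.0% lower with AS. For the alpha ring the median log2 fold change was -0.23 over 7 genes. Psma2 had the lowest level of the ring, 14.4 RPKM with AS and 17.6 RPKM with the vehicle, and also its largest difference, a log2 fold change of -0.29 (interval -0.37 to -0.21). Psma6 had the highest level, 123.3 and 131 RPKM, and the smallest difference, -0.09 (interval -0.14 to -0.04). The other alpha genes lay between these, from Psma3 at -0.11 to Psma5 at -0.24. Psma4, on chromosome 9 of GRCm38 from 54950790 to 54958030, had 105 and 117 RPKM.

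The beta ring had a median log2 fold change of -0.18 over 7 genes. Its 3 catalytic subunits were all lower with AS. Psmb5, whose product carries the chymotrypsin-like site that proteasome inhibitors bind most, had 25.1 RPKM with AS and 28.5 RPKM with the vehicle, from 1015 and 1304 reads. Its log2 fold change was -0.18 (interval -0.30 to -0.06). Psmb6, with the caspase-like site, had 17.0 and 20.4 RPKM and a log2 fold change of -0.26 (interval -0.36 to -0.16). Psmb7, with the trypsin-like site, had 27.9 and 31.7 RPKM and a log2 fold change of -0.18 (interval -0.24 to -0.13). The 3 intervals overlapped, so the active-site genes were not told apart by their fold change at this depth.

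The structural beta subunits held the extremes of the core. Psmb2, on chromosome 4 from 126677630 to 126709714, had 8.95 RPKM with AS and 11.9 RPKM with the vehicle, from 484 and 731 reads. Its log2 fold change of -0.41 was the largest of the core and also had the widest interval there, from -0.59 to -0.25. Psmb4 had 34.2 and 36.1 RPKM and a log2 fold change of -0.08 (interval -0.15 to -0.01). Psmb1 and Psmb3 had log2 fold changes of -0.10 and -0.20.

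The 17 genes of the 19S particle had a median log2 fold change of -0.12 and an SD over genes of 0.19. Of these, 12 were below 0 and 5 above, where 39.1% of all genes were below 0. The ATPases of the base did not lean to either side. Of these 6 genes, 3 were lower and 3 higher with AS, and their median was -0.003, although the signs of Psmc1 and Psmc2 turned with the scaling of the libraries. Psmc3 had 144 RPKM with AS and 171 RPKM with the vehicle, for a log2 fold change of -0.24 (interval -0.27 to -0.21). Psmc5 went the other way, with 97.9 and 87.7 RPKM and a log2 fold change of 0.16 (interval 0.11 to 0.21), and so did Psmc6, with 52.8 and 48.0 RPKM and 0.14 (interval 0.10 to 0.18). Psmc1 was the most abundant of all 46 genes, with 278 and 284 RPKM, and its log2 fold change was -0.03. Psmc2 (24.0 and 23.6 RPKM) had the lowest level of these and a log2 fold change of 0.02. Psmc4 had 24.5 and 26.7 RPKM and a log2 fold change of -0.12.

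The 11 subunits without ATPase activity had a median of -0.25, and 9 of them were below 0. The 3 such members of the base were lower with AS by similar amounts. Psmd4, which encodes a ubiquitin receptor, had 55.7 RPKM with AS and 71.1 RPKM with the vehicle, for a log2 fold change of -0.35 (interval -0.40 to -0.31). The scaffold genes Psmd1 (33.5 and 41.1 RPKM) and Psmd2 (157 and 187 RPKM) had log2 fold changes of -0.29 and -0.26.

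The lid, which removes the ubiquitin chain, held both the largest difference of the set and some of the smallest. Psmd13, on chromosome 7 from 140881968 to 140898643, had 10.2 RPKM with AS and 14.3 RPKM with the vehicle, from 1541 and 2459 reads. Its log2 fold change was -0.49 (interval -0.59 to -0.40), which is percentile 3.27 of all genes in the table. Psmd8 followed with 27.8 and 35.7 RPKM and a log2 fold change of -0.36 (interval -0.42 to -0.30). Psmd14, which encodes the deubiquitinase of the lid, had 42.0 and 44.1 RPKM and a log2 fold change of -0.07. Its partner Psmd7 had the highest level of the lid, 187 and 179 RPKM, and a log2 fold change of 0.06 (interval 0.03 to 0.09) that turned to -0.0078 with a TMM factor. Psmd11 had 10.3 and 10.2 RPKM and a log2 fold change of 0.02, with an interval from -0.06 to 0.09. Psmd6 (-0.25), Psmd12 (-0.19) and Psmd3 (-0.12) lay between.

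The activators did not share a direction, and the signs of Psme2 and Psme4 turned with the scaling. Psme1, for the alpha chain of PA28, had 124 RPKM with AS and 137 RPKM with the vehicle, for a log2 fold change of -0.15 (interval -0.18 to -0.12). Psme2, for its beta chain, had 39.0 and 39.4 RPKM and a log2 fold change of -0.01 (interval -0.09 to 0.06). Both genes lie on chromosome 14 of GRCm38, Psme1 from 55578123 to 55581529 on the plus strand and Psme2 from 55587441 to 55591113 on the minus strand. Psme3, for the nuclear PA28 gamma, had 20.7 and 17.6 RPKM and a log2 fold change of 0.23 (interval 0.15 to 0.31), the highest value among subunits and activators. Psme4, for PA200, had 9.10 and 9.12 RPKM, and a log2 fold change of -0.0037. The copy Psme2b had 4.74 and 4.80 RPKM.

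The assembly factors were mostly scarce and also went both ways, with a median of 0.004. Of these 8 genes, 4 were below 0, where 39.1% of all genes were. The signs of Psmg2 and Psmg4 turned with the scaling. The chaperones of the alpha ring work in pairs. In the first pair, Psmg1 had 25.5 and 27.1 RPKM and Psmg2 had 5.46 and 5.24 RPKM, with log2 fold changes of -0.09 and 0.06. In the second pair, Psmg3 had 2.54 and 2.15 RPKM and Psmg4 had 15.9 and 16.5 RPKM, with log2 fold changes of 0.23 and -0.05. Psmg3 rests on 330 and 316 reads, and its interval ran from 0.01 to 0.47. Among the chaperones of the 19S base, Psmd5 was 0.22 higher (10.9 and 9.34 RPKM), while Psmd9 (3.45 and 3.91 RPKM) and Psmd10 (22.5 and 25.6 RPKM) both had a log2 fold change of -0.18. Psmf1, the gene of PI31, had the lowest level of the set, 1.48 and 1.32 RPKM, and an interval that spanned 0 (-0.03 to 0.36). Of the genes matched by symbol only, Psmc3ip had 30.9 and 34.2 RPKM and Psme3ip1 had 57.5 and 51.9 RPKM.

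Transcript levels within a particle were far from equal, although each of these subunits is built into the particle in equal number. In the vehicle library the 20S genes spanned 11.6-fold, from Psmb3 at 11.4 RPKM to Psma6, and in the AS library 13.8-fold, from Psmb2 to Psma6. The alpha genes had a median of 66.9 RPKM with AS and 78.8 RPKM with the vehicle, above the 17.0 and 20.4 RPKM of the beta genes, a gap that was smaller per principal transcript (71.3 and 84.0 against 40.0 and 44.6). The 19S genes spanned 27.8-fold in the vehicle library, from Psmd11 to Psmc1. These spans depend on the length by which reads are divided. RPKM here uses every annotated exon of a gene, which for Psma7 is 3071 bases against 914 bases in its principal transcript in GENCODE M21. Divided by the principal transcript, an alternative chosen after the data were seen, the vehicle levels spanned 16.6-fold in the 20S core, from Psmb2 (16.7) to Psma7 (278), and 15.1-fold in the 19S particle. The first span was wider than with all exons and the second narrower. A gene has the same length in both libraries, so its fold change is not affected.

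**Figure D3:**
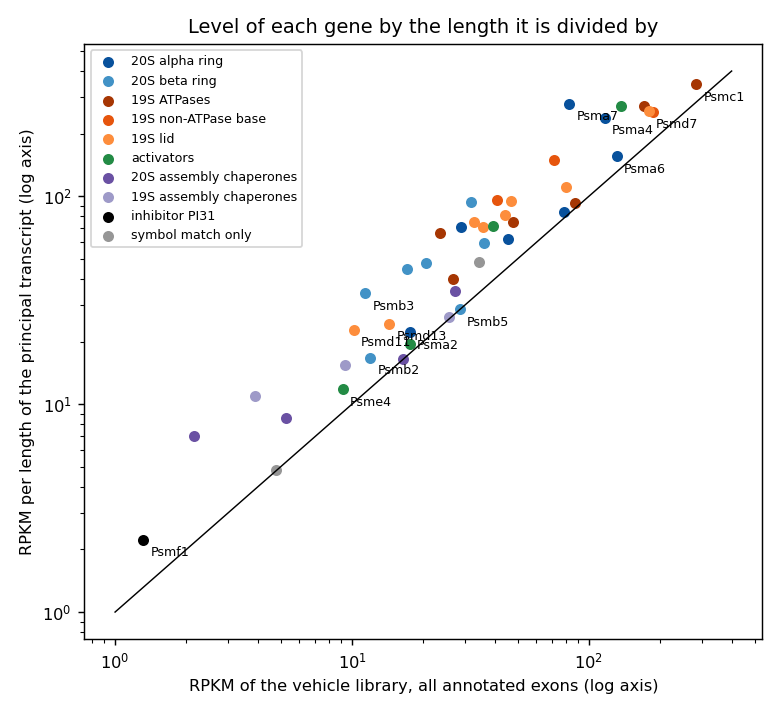
Level in the vehicle library per length of all annotated exons (RPKM, horizontal log axis) and per length of the principal transcript (vertical log axis) for the 45 genes with an entry, with the line of equality. Every gene lies on or above the line, Psmc1 is highest on both axes, and Psma7 moves from 82.6 to 278.

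Some of these genes have near-identical copies elsewhere in the genome, and how the authors counted reads that fit several places is not stated. Of 45 members compared, 9 had over 50% of the principal transcript matched at 95% identity or more by transcripts of genes elsewhere. These were Psma4, Psma5, Psmb3, Psmb5, Psmc1, Psmd2, Psmd11, Psme2 and Psme2b. The match covered 98.2% of Psmd2, 88.4% of Psmb5 and 82.5% of Psme2, so levels of these genes are uncertain. Without the 4 such genes of the core, the 20S median was -0.21 over 10 genes. A further source of shared reads is overlap with a neighbour, which touched 7 members. Counting by strand is not stated. Psmd1 shares 9.80% of its principal transcript with Gm21972 on the same strand, which was listed at 80.6 and 101 RPKM, above Psmd1 itself, with a log2 fold change of -0.33. Psmb5 shares 12.1% with Mir686 on the same strand, which was listed at 84.0 and 95.1 RPKM with -0.18, the value of Psmb5. Psmg3, which had the highest log2 fold change of the members (0.23), shares 27% with Gm26938 on the same strand. Gm26938 was listed at 7.87 and 6.51 RPKM, above Psmg3 itself, with 0.27. Reads of these pairs cannot be told apart here. Psmd13 shares 17.2% with Sirt3 on the other strand, at 0.533 and 0.646 RPKM. The neighbours of Psma4, Psmb7 and Psmc3ip, also on the other strand, were between 2.58 and 12.5 RPKM with AS.

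The promoters were searched for the letters TGACNNNGC on either strand, the pattern bound by NRF1 and NRF2 with small MAF partners. The windows are those of RefSeq on GRCm38.p6, from 250 bases before to 50 bases after a start, and 39 members had at least 1. The catalytic gene Psmb7 had no window and was not searched, nor were Psmb1, Psmb2, Psmc3, Psmd3, Psmd7 and Psmg2. The letters were present for 6 of 39 members (15.4%), against 17.0% of the 9680 genes of the table with a window. The CCAAT letters of NF-Y, again on either strand, were present for 14 of 39 (35.9%), against 43.1%. The stretch of 60 bases with the match is shown for all 6 genes, to let the sites of Psmb5 and Psmb6 be set beside the others. Each runs 5′ to 3′ on the strand of the gene, with the matching letters in capitals.
Psmb5, chr14:54618009-54618068, minus strand: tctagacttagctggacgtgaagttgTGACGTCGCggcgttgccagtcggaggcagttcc
Psmb6, chr11:70525297-70525356, plus strand: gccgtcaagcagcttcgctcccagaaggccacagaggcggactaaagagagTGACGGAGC
Psmc6, chr14:45329574-45329633, plus strand: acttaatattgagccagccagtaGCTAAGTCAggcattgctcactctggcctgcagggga
Psmd12, chr11:107479278-107479337, plus strand: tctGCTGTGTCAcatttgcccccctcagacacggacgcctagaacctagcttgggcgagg
Psmd9, chr5:123228130-123228189, plus strand: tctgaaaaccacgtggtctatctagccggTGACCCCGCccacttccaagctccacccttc
Psme4, chr11:30771717-30771776, plus strand: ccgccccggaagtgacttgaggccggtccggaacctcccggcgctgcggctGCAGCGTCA

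The match is on the strand of the gene for Psmb5, Psmb6 and Psmd9 and on the opposite strand for the other 3. Its first base lies 9 bases before the start in Psmb6, 7 in Psme4, 31 in Psmd9 and 47 in Psmb5, but 227 in Psmc6 and 247 in Psmd12. In Psme4 the match runs across the start. Of 43 member windows, 34 had their last 30 bases in a GENCODE M21 transcript of the symbol on the same strand. The start used for Psmd9 lies inside the longer gene of GENCODE M21. Of the 6 genes, Psmc6 alone had a log2 fold change above 0 (0.14), and the others ranged from -0.26 for Psmb6 to -0.0037 for Psme4. A match of letters does not show that a factor was bound, and no binding was measured in these cells.

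The genes that act on the proteasome or its transcription were given for comparison, from lists chosen with earlier results of these data known. The 15 regulator genes had a median of 0.13, against 0.07 for the whole table, and 4 of them were below 0, where 39.1% of all genes were. Nfe2l1, on chromosome 11 from 96817414 to 96829968, had 145 RPKM with AS and 81.6 RPKM with the vehicle, from 35518 and 22569 reads. Its log2 fold change was 0.83 (interval 0.81 to 0.86), the only value past a fold of 1.5 among the 15, where 5.57% of all genes were past it. Within this list, the genes of factors that process or partner NRF1 were also higher, except Maff. The list does not hold Vcp, the p97 gene, which was lower, at -0.29 (interval -0.33 to -0.26). Mafg, a small MAF gene, had 20.5 and 14.6 RPKM and a log2 fold change of 0.49. Ngly1, for the enzyme that removes sugars from NRF1, had 0.884 and 0.675 RPKM and 0.35 (interval 0.15 to 0.64). Ddi2, for the protease that cleaves NRF1, and Mafk both had log2 fold changes of 0.26. Nfe2l2, the gene of NRF2, had 23.5 and 19.9 RPKM and 0.24 (interval 0.17 to 0.30), while its inhibitor Keap1 had 13.7 and 13.8 RPKM and -0.01. Bach1 was at 0.29, Nfyb at 0.13, Foxo4 at 0.12, Hsf1 at 0.10, Nfya at 0.07, Nfyc at -0.004, Maff at -0.07 and Stat3 at -0.11. The transcript of Nfe2l1 was higher in the library in which the 20S genes were lower, and protein levels and proteasome activity were not measured.

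The immunoproteasome genes, which replace the catalytic subunits after interferon, were lower in level than the genes they replace, since Psmb5, Psmb6 and Psmb7 all had at least 17.0 RPKM. Psmb8 had 7.65 RPKM with AS and 8.07 RPKM with the vehicle, Psmb10 had 7.98 and 8.61 RPKM, and Psmb9 had 1.59 and 1.35 RPKM. Their log2 fold changes were -0.08, -0.11 and 0.22, and all 3 intervals spanned 0.

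Proteins bound to the proteasome were spread wider than its subunits (SD over genes 0.33 against 0.15), but about as widely as all genes (0.31). Of 18 genes of bound proteins, with older symbols counted once, 17 were in the table, and their median log2 fold change was -0.02. A total of 10 were below 0, where 39.1% of all genes were. Uchl5, for a deubiquitinase of the 19S particle, had 21.5 RPKM with AS and 35.2 RPKM with the vehicle, from 2820 and 5229 reads. Its log2 fold change of -0.71 (interval -0.78 to -0.65) was the only one past a fold of 1.5 among the 17, where 5.57% of all genes were past it. The next values were chosen after they were seen. Pomp, for the maturation factor of the 20S core, had 10.7 and 15.5 RPKM and a log2 fold change of -0.53 (interval -0.60 to -0.46), which passed that fold when centred on all genes or with a TMM factor (both -0.59). Sem1, a small lid subunit outside the symbol rule, had 104 and 119 RPKM and -0.20. Adrm1, a ubiquitin receptor of the 19S particle also outside that rule, had 7.91 and 8.42 RPKM and -0.09 (interval -0.19 to 0.01). On the other side lay Zfand2a, for a stress-induced zinc finger protein that binds the 19S particle, at 0.58 (14.5 and 9.70 RPKM) and Zfand5 at 0.57 (5.81 and 3.89 RPKM). Both passed that fold with RPKM rescaled to equal sums (0.63 and 0.62), a check of these genes added after the data were seen. For the steps before the proteasome, the medians were 0.10 for 17 genes of p97 and its cofactors, -0.07 for 10 genes of ubiquitin and of E1 enzymes for ubiquitin and related modifiers, and 0.01 for 33 E2 enzymes, with 0 genes past a fold of 1.5 in each. Of the 17 genes around p97, 3 were lower and 3 higher by at least 0.25, where 11.5% and 22.3% of all genes were. They ran from Svip at -0.41 to Ube4a at 0.37, and their SD over genes was 0.22. The E2 genes ran from Ube2l3 at -0.28 to Ube2w at 0.44. Vcp, the p97 gene, chosen like these 4 after the values were seen, had 42.5 and 52.2 RPKM and a log2 fold change of -0.29.

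**Figure D4:**
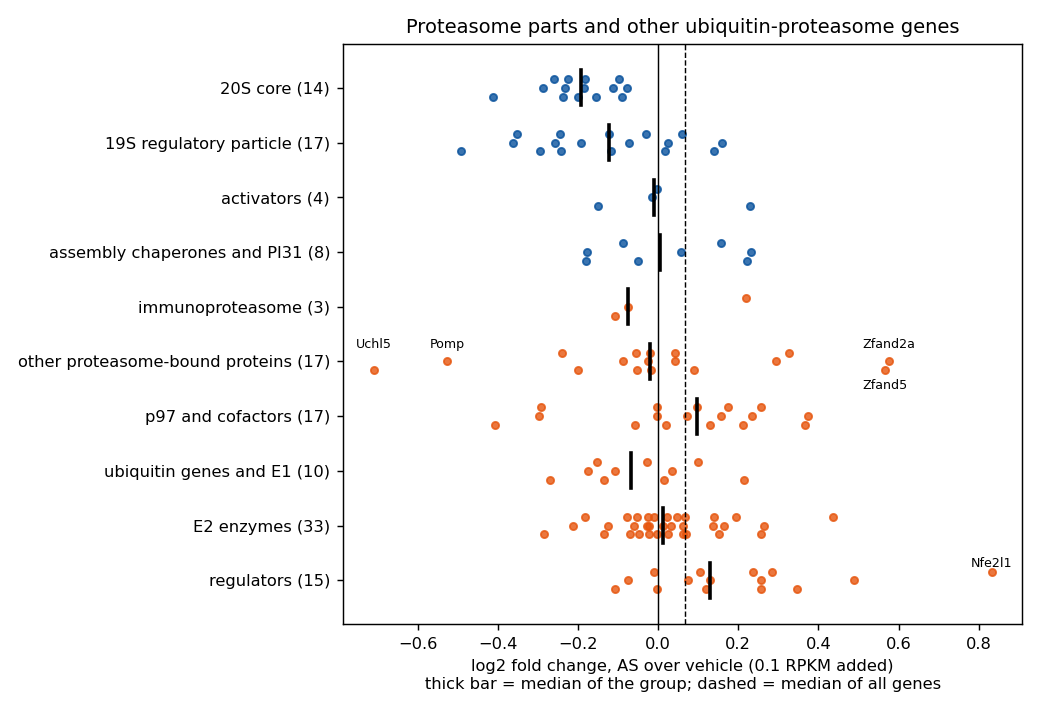
Log2 fold change of AS over vehicle for the genes of each proteasome part (blue) and of each related list other than the cell type markers (orange), with the number of genes in brackets, the group median as a thick bar, 0 as a solid line and the median of all genes (0.07) as a dashed line. Nfe2l1 at 0.83 and Uchl5 at -0.71 lie farthest out among the genes plotted, and the 20S core has the lowest median of the groups plotted, -0.19.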

How the data were processed

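RNA of 4T1 cells was made into libraries with a stranded mRNA kit. The submitters' processing notes name fastp 0.23.4, STAR 2.5.3a and featureCounts, and the genome build GRCh38. The table holds mouse symbols, and exon lengths of GENCODE M21 (GRCm38) turned its values into whole reads (within 0.02) for 94.2% of the 13502 genes that have 1 entry in it. Coordinates are therefore given on GRCm38. The header does not name the unit. The values were read as RPKM made by the authors, without further scaling. The deposited table also holds the authors' own comparison (log2 fold change, p-value and FDR) and a mean log2 CPM, none of which was used. The filter that left these genes is not stated.

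Log2 fold changes were computed with 0.1 RPKM added, and library constants and reads from RPKM and exon length, tested on simulated data. No p-value was computed, since 1 library per condition leaves no spread. Reads without molecular identifiers are not independent molecules. Copies were found with blastn 2.17.0 (95% identity, 100 bases). Members and lists were chosen with earlier results of these data known. Named members were the extremes of each part, the catalytic genes and any past a fold of 1.5, with the rest by value or range. Alternatives were other added amounts, scalings, filters, summaries and members. Python 3.11.15 was used.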

Additional observations from a re-analysis of the deposited data

How the results depend on the processing

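All 14 genes of the 20S core were below 0 at each of the 8 settings of added amount, scaling and filter, as were 25 of the 31 subunits of the 20S and 19S. Added amounts and filters cannot turn a sign, and centring and the TMM factor lower every value. Only the rescaling to equal sums, a log2 shift of 0.057, could turn a value below 0. The other settings are therefore no check of these counts. Of the 46 members, 9 had a sign that depended on the setting. The shift between scalings was as large as some medians. Over all genes the median moved from 0.07 to 0 when centred, to 0.0007 with a TMM factor and to 0.12 with RPKM rescaled to equal sums. In that order, the median became -0.19, -0.19 and -0.064 for all members, -0.26, -0.26 and -0.14 for the 20S core, and -0.19, -0.19 and -0.066 for the 19S particle. It became -0.075, -0.077 and 0.048 for the activators and -0.062, -0.064 and 0.060 for the assembly factors, so neither of these parts has a fixed direction. A minimum of 10 RPKM gave -0.15 for all members and -0.068 for the assembly factors. The mean in place of the median gave -0.11 for all members and -0.14 for the 19S particle. The 19S median was -0.15 with Psmd5, Psmd9 and Psmd10 and, in an alternative chosen after seeing the data, -0.16 without genes with copies elsewhere. With a log2 threshold of 0.25 in place of a fold of 1.5, 8 members passed instead of 0. Between 7 and 8 members lay above the median of all genes at each setting. The 19S levels spanned 15.1-fold per principal transcript, against 27.8-fold, since another length was used. No replicate could be left out and no paired analysis was possible because each condition has 1 library. Intervals were computed at the deposited scaling only, so counts of intervals below or above 0 hold for that scaling alone. They cover counting error only, and the spread between dishes is not known.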
